A study of Mus musculus with 9 samples.

Results

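The epithelial alarmins TSLP, IL-33 and IL-25 and the receptor chains that are particular to each were followed through 9 RNA-sequencing libraries of mouse back skin. The 6 genes were taken by name from the deposited tables: the ligand genes Tslp, Il33 and Il25, and the receptor genes Crlf2 (TSLPR), Il1rl1 (ST2) and Il17rb (IL-17RB). They are 6 of 34637 genes in the FPKM table and of 55401 in the count table. Of the 6, 5 passed the edgeR filter on low counts and were among the 20817 genes tested, and Il25 did not. The question the comparison addressed is how the skin transcriptome of mice given Fangji Dihuang formulation, a herbal preparation, differed from that of mice with the same dermatitis given water.

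All mice were male C57BL/6 animals aged 6 to 8 weeks with no transgene or deletion named, and all received 2,4-dinitrochlorobenzene (DNCB), a hapten that gives a contact dermatitis used as a model of atopic dermatitis. The shaved back was sensitized on day 1 with 200 μL of a 1% solution and challenged with 100 μL of a 0.5% solution on days 4 to 21. The Model group (4 libraries, named MXL) was given water instead, and the FJDHF group (5 libraries, named MR) was given the formulation by mouth daily after day 7, until day 28. The study names its medium-dose arm as the treated group that was sequenced. The DNCB reaction is thus shared by both groups, and no library of skin without DNCB was analysed here. The codes of the libraries were not explained in the sources used here. The MXL codes were read as Model from their number and from the first letters of the Chinese word for model, and whether a code such as MR3_4 stands for 1 mouse or for a pool is not known. The p-values therefore measure the spread between these libraries.

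Alarmins are cytokines that barrier epithelium makes or holds in store and gives off on damage, allergen contact or scratching. TSLP signals through TSLPR paired with the IL-7 receptor α chain and on to JAK and STAT5, IL-33 leaves the nucleus of damaged cells and signals through ST2 paired with IL-1RAP and on to MyD88, and IL-25 signals through IL-17RB paired with IL-17RA and on to Act1. All of them act on dendritic cells, mast cells, T helper 2 cells and group 2 innate lymphoid cells and are known as upstream drivers of type 2 inflammation in dermatitic skin. In mouse skin IL-33 is known to be made by keratinocytes and fibroblasts, and ST2 is carried by mast cells, regulatory T cells and innate lymphoid cells.

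RefSeq promoter windows, each 250 bases before to 50 bases after an annotated start, are shown, 2 for Il33 and 2 for Il1rl1, because these members were high together in 1 library, and a further window for Il17rb because it holds the starts of 2 genes whose levels ran side by side. They are printed 5′ to 3′ on the strand of the gene, build GRCm38.p6, with matches to the searched motifs in capitals. The AP-1 motif was searched as TGAGTCA with its middle base free, and the STAT motif as TTCNNNGAA, where N is any base. STAT6 was searched with 1 free base more than STAT. GATA was searched as AGATAA. The TATA box was searched by the common form TATAAA, and NF-kB is given by its name alone. Both strands were searched, and no 2 of the matches shown overlap.
Il33, upstream start, chr19:29924863-29925162, plus strand: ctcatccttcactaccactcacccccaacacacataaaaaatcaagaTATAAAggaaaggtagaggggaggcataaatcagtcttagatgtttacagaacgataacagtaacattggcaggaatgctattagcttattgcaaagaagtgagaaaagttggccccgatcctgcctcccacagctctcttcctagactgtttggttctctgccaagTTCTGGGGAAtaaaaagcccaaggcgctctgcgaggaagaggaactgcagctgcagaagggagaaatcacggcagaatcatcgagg
Il33, downstream start, chr19:29945540-29945839, plus strand: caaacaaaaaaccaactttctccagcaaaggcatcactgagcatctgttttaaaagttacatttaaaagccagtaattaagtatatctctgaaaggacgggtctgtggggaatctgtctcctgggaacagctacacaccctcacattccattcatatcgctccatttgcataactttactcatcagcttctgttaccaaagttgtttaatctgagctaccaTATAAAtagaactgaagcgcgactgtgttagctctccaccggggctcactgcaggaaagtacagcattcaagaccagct
Il1rl1, upstream start, chr1:40429320-40429619, plus strand: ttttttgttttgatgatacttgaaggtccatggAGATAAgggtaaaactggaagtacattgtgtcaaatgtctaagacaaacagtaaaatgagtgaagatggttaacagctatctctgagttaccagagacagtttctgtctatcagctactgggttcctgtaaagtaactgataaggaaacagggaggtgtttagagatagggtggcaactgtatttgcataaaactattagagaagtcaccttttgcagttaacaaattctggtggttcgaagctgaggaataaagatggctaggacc
Il1rl1, downstream start, chr1:40439379-40439678, plus strand: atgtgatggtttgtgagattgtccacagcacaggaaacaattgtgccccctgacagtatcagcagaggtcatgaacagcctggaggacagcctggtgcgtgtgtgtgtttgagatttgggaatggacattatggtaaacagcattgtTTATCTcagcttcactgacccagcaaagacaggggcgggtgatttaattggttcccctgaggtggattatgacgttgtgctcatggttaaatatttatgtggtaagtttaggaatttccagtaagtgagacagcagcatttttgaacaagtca
Il17rb, chr14:30008847-30009146, minus strand: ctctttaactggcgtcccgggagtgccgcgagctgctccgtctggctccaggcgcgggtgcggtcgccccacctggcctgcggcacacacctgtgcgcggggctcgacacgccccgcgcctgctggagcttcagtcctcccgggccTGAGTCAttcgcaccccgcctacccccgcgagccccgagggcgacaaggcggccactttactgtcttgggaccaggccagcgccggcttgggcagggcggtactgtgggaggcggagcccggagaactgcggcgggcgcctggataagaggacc

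The upstream Il33 window held the TATA box letters at -203 and a STAT6 match, TTCTGGGGAA, at -36, counted from the annotated start. The downstream Il33 window held TATAAA at -29. Each Il1rl1 window held 1 GATA match, AGATAA at -217 in the first and its reverse complement TTATCT at -103 in the second. The Il17rb window held an AP-1 match, TGAGTCA, at -104, and at 72.0% G and C it was richer in these bases than the median of all 32851 promoter windows, 52.7%. Over those windows AP-1 letters were present in 7.81%, STAT in 8.30%, STAT6 in 6.95%, GATA in 11.2%, the TATA box in 13.6% and NF-kB in 8.46%, so that none of these matches is rare. Of the members, 4 had an entry in the promoter table, and Tslp and Il25 had none.

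In the FPKM table Tslp (ENSMUSG00000024379) is on chromosome 18 from 32815383 to 32819797, plus strand. Il33 (ENSMUSG00000024810) is on chromosome 19 from 29925114 to 29960718, plus strand. Il25 (ENSMUSG00000040770) is on chromosome 14 from 54932695 to 54935837, plus strand. Crlf2 (ENSMUSG00000033467) is on chromosome 5 from 109554709 to 109558993, minus strand, and Il17rb (ENSMUSG00000015966) on chromosome 14 from 29996135 to 30008896, minus strand. Il1rl1 (ENSMUSG00000026069) is on chromosome 1 from 40429570 to 40448148, plus strand, in the middle of the interleukin-1 receptor cluster. These positions are on mm10, the build in the submitters' processing notes. They span whole genes with exons, introns and UTRs, except that Il1rl1 in the GENCODE M21 annotation runs on to 40465415. The lincRNA 4930455D15Rik lies across Tslp on the opposite strand and shares 0 exon bases with it, whereas Actr8, on the opposite strand to Il17rb, shares 141 of the 3707 exon bases of Il17rb (3.80%). A strand setting for the counting was not given in the sources used here. Actr8 itself was nearly level, at 27.3 to 32.2 CPM (counts per 1000000 of the library total).

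The members differed in level per length. By the median FPKM over the 9 libraries, Il33 was highest at 12.4 FPKM, followed by Il1rl1 at 3.41, Tslp at 2.07, Il17rb at 0.809, Crlf2 at 0.111 and Il25 at 0. Neighbours in this order overlapped in their ranges over libraries except for Il17rb against Crlf2. Within a library, Il33 was above Il1rl1 in 9 of 9, Il1rl1 above Tslp in 9 of 9, Tslp above Il17rb in 8 of 9, Il17rb above Crlf2 in 9 of 9 and Crlf2 above Il25 in 8 of 9. The median FPKM of Il33 was higher than that of 82.1% of the tested genes and that of Crlf2 higher than that of 9.65%. Both ligands of the upper part of the order were thus more abundant per length than their own receptor chain. The Tslp level was 9.33 to 25.8 times the Crlf2 level in the 8 libraries with Crlf2 counts, and the Il33 level 2.10 to 6.55 times the Il1rl1 level in all 9. IL-25 showed the opposite, with the receptor chain measured in every library and the ligand listed at 0 in 8.

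Library totals lay between 74648669 and 79474215 counts, so that 3 counts, the level a count of 0 allows, came to 0.0377 to 0.0402 CPM. No gene of the 20817 passed an adjusted p under 0.05 when edgeR's quasi-likelihood p was adjusted by Benjamini and Hochberg's method (percent called 0), and limma on log2(FPKM + 1) also called 0 of 34637 (percent called 0). DESeq2 called 12 of 34420 (0.0349%), none of them a member. At an unadjusted p under 0.05 edgeR had 326 genes (1.57%), 161 higher (0.773%) and 165 lower (0.793%) in FJDHF. Of the members tested, 0 of 5 passed the adjusted threshold by any of these tools, though DESeq2 returned no p for Il1rl1. In edgeR 1 of them, Il33, was under an unadjusted p of 0.05, on the lower side. The groups were fully apart for 110 tested genes (0.528%) and for none of the members. Each exact permutation test below is two-sided and, with 4 and 5 libraries, cannot give less than 0.00794.

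**Figure D1:**
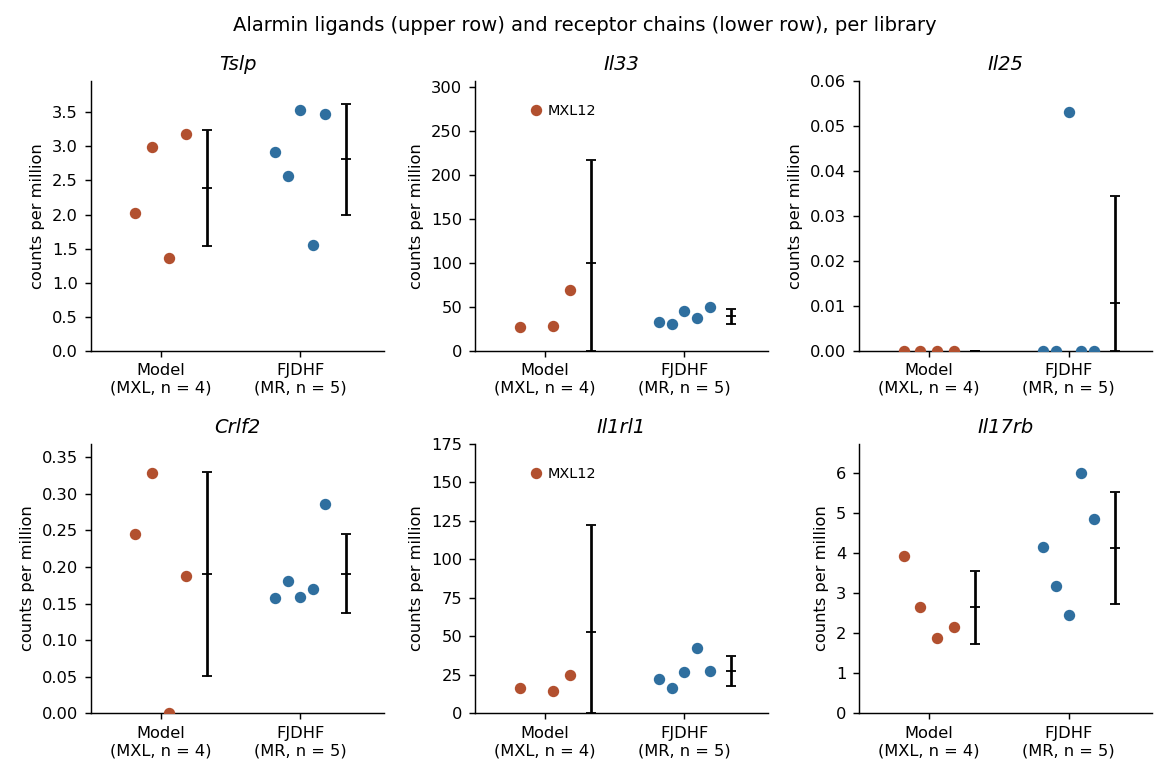
CPM (linear axis, from 0) of the 6 members in each Model (orange) and FJDHF (blue) library, with the mean and SD beside the points (lower bars end at 0 where the SD exceeds the mean). Il33 and Il1rl1 each have 1 Model library, MXL12, far above the other 8, at 274 and 156 CPM, and the groups overlap for every member with counts in both groups.

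Tslp, the ligand best known from keratinocytes, was counted in every library. It had 156, 227, 108 and 238 counts in the Model libraries MXL1, MXL12, MXL3_4 and MXL_3. In the FJDHF libraries MR1, MR3, MR3_4, MR4_5 and MR5 it had 222, 199, 266, 119 and 268. The lowest library of each group, MXL3_4 and MR4_5, held fewer than 120 counts, and the ranges of the groups lay over each other. As CPM this was 2.39 ± 0.856 (SD, n = 4) in Model and 2.81 ± 0.811 (SD, n = 5) in FJDHF. The log2 fold change of FJDHF over Model was 0.21 ± 0.35 (SE), with an edgeR adjusted p of 1.00 and an exact permutation p of 0.468, so the difference was smaller than the spread between libraries. Tslp in MXL12, at 2.99 CPM, was within the range of the others.

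Il33, the nuclear cytokine of keratinocytes and stromal cells, was the member with the highest level per length and, like Il1rl1, was uneven over the Model libraries. The Model libraries MXL1, MXL12, MXL3_4 and MXL_3 had 2077, 20820, 2253 and 5127 counts of Il33. The FJDHF libraries MR1, MR3, MR3_4, MR4_5 and MR5 had 2503, 2315, 3423, 2886 and 3790. The Model group thus held the lowest, the second highest and by far the highest value, and all 5 FJDHF libraries lay inside its range. The mean was 99.5 ± 118 CPM (SD, n = 4) in Model and 39.0 ± 8.19 CPM (SD, n = 5) in FJDHF. Without MXL12 the Model mean was 41.3 ± 23.7 CPM (SD, n = 3). The log2 fold change was -1.37 ± 0.62 (SE), with an unadjusted p of 0.0496 and an adjusted p of 1.00 in edgeR. It became -0.12 ± 0.34 (SE), adjusted p 1.00 in edgeR, without MXL12. The exact permutation p for the mean level on the log2(CPM + 0.5) scale was 0.452 over all libraries.

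Il25, the ligand also called IL-17E, was listed at 0 in 8 of 9 libraries. The FJDHF library MR3_4 had 4 counts (0.0532 CPM), and the other 4 FJDHF and all 4 Model libraries had none. A count of 0 allows up to 0.0402 CPM at these depths, so that Il25 could not be compared between the groups.

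Crlf2, the TSLP-binding receptor chain, stood just above the detection limit. The Model libraries MXL1, MXL12, MXL3_4 and MXL_3 had 19, 25, 0 and 14 counts, and the FJDHF libraries MR1, MR3, MR3_4, MR4_5 and MR5 had 12, 14, 12, 13 and 22. Both the highest and the lowest count were in Model libraries. The means were 0.191 ± 0.140 CPM (SD, n = 4) in Model and 0.191 ± 0.0539 CPM (SD, n = 5) in FJDHF. The log2 fold change of -0.018 ± 0.83 (SE) had an edgeR adjusted p of 1.00 and an exact permutation p of 0.905, and its standard error leaves room for differences of either sign. It was 0.38 without MXL12 and -0.43 without MXL3_4.

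Il1rl1, which encodes the IL-33-binding chain ST2, followed its ligand. The Model libraries MXL1, MXL12, MXL3_4 and MXL_3 had 1290, 11874, 1156 and 1869 counts. The FJDHF libraries MR1, MR3, MR3_4, MR4_5 and MR5 had 1710, 1300, 2045, 3276 and 2121. As for Il33, MXL12 was the highest library by a wide margin, but the next highest was an FJDHF library, MR4_5. The means were 53.1 ± 68.9 CPM (SD, n = 4) in Model and 27.3 ± 9.63 CPM (SD, n = 5) in FJDHF, and 18.8 ± 5.54 CPM (SD, n = 3) in Model without MXL12. The log2 fold change was -0.98 ± 0.66 (SE), with an edgeR adjusted p of 1.00 and an exact permutation p of 0.849. Without MXL12 it turned to 0.51 ± 0.32 (SE), again with an edgeR adjusted p of 1.00. DESeq2 returned no p for Il1rl1. Il1rl1 gives rise to a membrane-bound and a secreted decoy form. The FPKM of Il1rl1 was a fixed multiple of its CPM to within 1% in each library, so that the tables do not separate these forms.

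Il17rb, the IL-25-binding chain, gave the member difference with the smallest exact p. The Model libraries MXL1, MXL12, MXL3_4 and MXL_3 had 304, 201, 150 and 160 counts. The FJDHF libraries MR1, MR3, MR3_4, MR4_5 and MR5 had 316, 246, 184, 461 and 373. The 3 highest libraries were FJDHF libraries and 2 of the 3 lowest were Model libraries, with MXL1 and MR3_4 the ones that crossed over. The means were 2.65 ± 0.909 CPM (SD, n = 4) in Model and 4.12 ± 1.39 CPM (SD, n = 5) in FJDHF. The log2 fold change of 0.61 ± 0.32 (SE) did not pass the test, with an unadjusted p of 0.0879 and an adjusted p of 1.00 in edgeR and an exact permutation p of 0.111. It was 0.61 without MXL12 as well. Without MXL1 it was 0.84 with an unadjusted p of 0.0310, and without MR3_4 it was 0.74 with an unadjusted p of 0.0469, both with an adjusted p of at least 0.983 in edgeR.

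**Figure D2:**
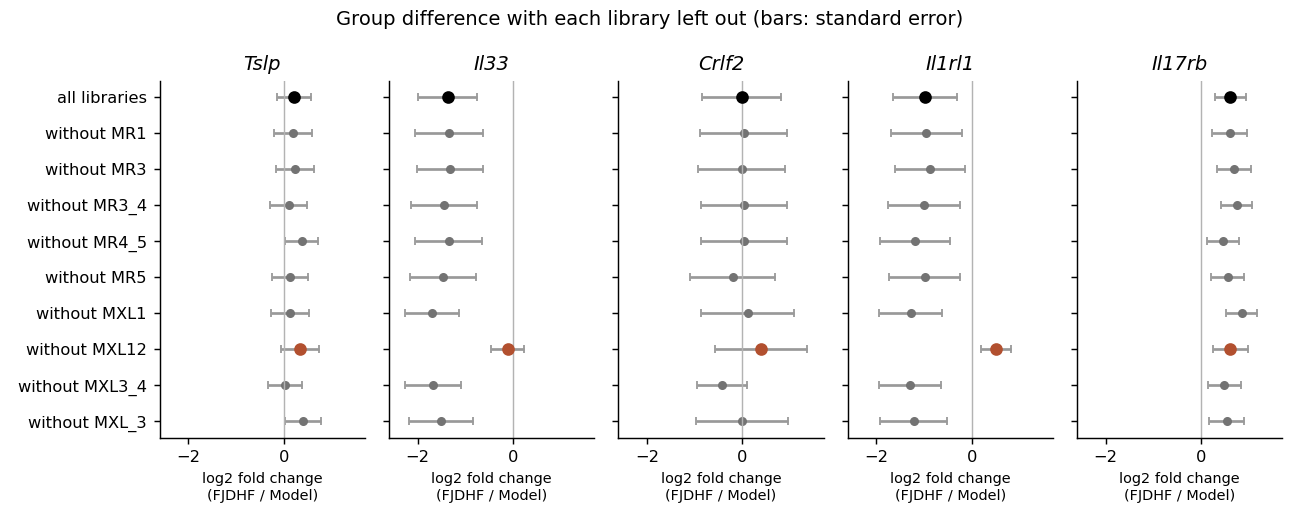
The edgeR log2 fold change of FJDHF over Model (horizontal axis) with its standard error for the 5 members tested, from all 9 libraries (black) and with each library left out in turn (grey, MXL12 orange). Without MXL12 the Il33 value goes from -1.37 to -0.12 and the Il1rl1 value from -0.98 to 0.51, while Il17rb stays between 0.45 and 0.84 throughout.

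The library MXL12 was examined further because it set the Il33 and Il1rl1 values. Relative to the highest of the other 8 libraries, after TMM scaling, MXL12 held 3.88 times as much Il33 and 3.81 times as much Il1rl1. A ratio as large was seen for 51 tested genes (0.245%) at the Il33 value and for 55 (0.264%) at the Il1rl1 value, while 14.5% of the tested genes were highest in MXL12 at all. Relative to the median of the others the ratios were 7.92 for Il33 and 6.47 for Il1rl1. The same ratio to the median was 1.11 for Tslp, 1.91 for Crlf2 and 0.769 for Il17rb. Crlf2 was also highest in MXL12, at 1.18 times the next library, a ratio that 4.86% of the tested genes reached.

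**Figure D3:**
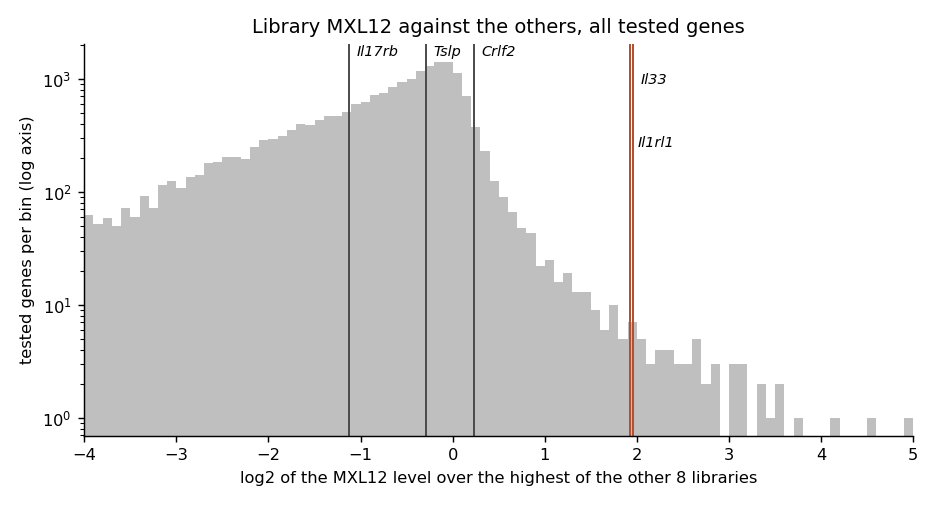
Histogram over the tested genes (log count axis) of the log2 ratio of the TMM-scaled level in MXL12 to the highest of the other 8 libraries, with lines at the members tested and the few genes outside the plotted range left out. Il33 (3.88 times) and Il1rl1 (3.81 times) lie together in the right tail, Crlf2 (1.18 times) at the right edge of the bulk, and Tslp and Il17rb (0.820 and 0.459 times) within it.

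Ligand and receptor were high by nearly the same factor, and so their ratio was not unusual in MXL12. The Il33 FPKM was 4.19 times the Il1rl1 FPKM there, against 3.85, 4.66 and 6.55 times in MXL1, MXL3_4 and MXL_3. In FJDHF the ratio was 3.50, 4.26, 4.00, 2.10 and 4.27 in MR1, MR3, MR3_4, MR4_5 and MR5. The lowest ratio, in MR4_5, came with the second highest Il1rl1, and the highest ratio, in MXL_3, with the second highest Il33. Across the 9 libraries the log2 levels of Il33 and Il1rl1 had a Pearson r of 0.92 and a Spearman rho of 0.77. Without MXL12, r was 0.57 and rho 0.67 over 8 libraries. These values describe libraries of like depth, all with the DNCB reaction, and the higher r rests on MXL12.

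**Figure D4:**
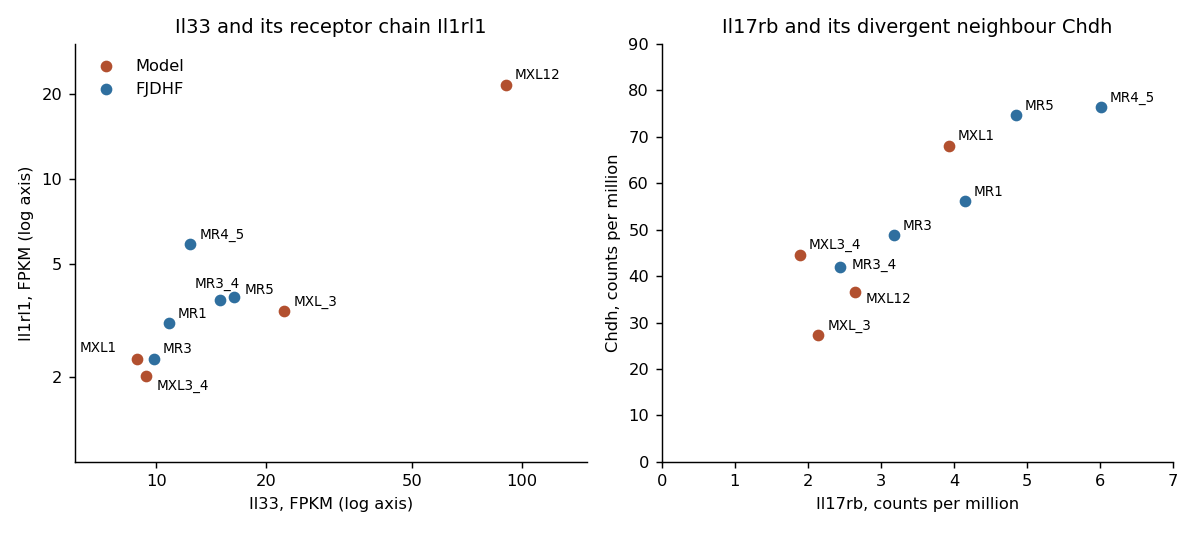
Left, Il33 against Il1rl1 as FPKM on log axes; right, Il17rb against Chdh as CPM on linear axes; each point is a library, Model orange and FJDHF blue. MXL12 stands alone at 90.3 and 21.6 FPKM on the left and within the row of points on the right, where both genes are highest in MR4_5.

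Il1rl1 lies among related receptor genes on chromosome 1, and all 6 of the cluster, Il1r2, Il1r1, Il1rl2, Il1rl1, Il18r1 and Il18rap, were highest in MXL12. The level in MXL12 over the median of the other libraries was 6.47 for Il1rl1, 4.17 for Il18rap, 3.21 for the IL-1 decoy receptor Il1r2, 2.49 for the IL-1 receptor Il1r1, 1.75 for the IL-18 receptor Il18r1 and 1.51 for the IL-36 receptor Il1rl2. These 6 genes were set side by side after the values were seen.

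Among genes with a mean of at least 1 CPM, those most like Il33 over the 9 libraries were Crem (r = 0.97), Pdpn, Plek, Stat4 and C920009B18Rik. Crem, a cAMP-responsive transcription factor, had 27.0 CPM in MXL12 and 9.60 to 16.0 in the others, and Pdpn, the podoplanin gene of lymphatic endothelium and activated stroma, had 135 against 44.7 to 80.6. Without MXL12 these r values were 0.89 and 0.88. Those most like Il1rl1 were Cxcr2 (r = 0.99), Nlrp3, Timp1, Draxin and Il1b. Il1b, the inflammatory cytokine, had 656 CPM in MXL12 and 2.28 to 52.0 in the others, with MR4_5 second. Cxcr2, the chemokine receptor of neutrophils, had 79.7 against 3.22 to 12.9. The r of Il1rl1 with Cxcr2 was 0.94 without MXL12, over 8 libraries in which MR4_5 was the highest for both.

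Markers of other cells moved with these values. The mean log2 level over the 8 neutrophil markers (S100a8, S100a9, Csf3r, Cxcr2, Ly6g, Retnlg, Mmp8 and Camp) was 4.28 in MXL12 and 1.26 to 2.88 in the others, and S100a9, the most abundant, ranged from 5.73 to 255 CPM. The mast cell mean was 4.41 in MXL12 against 3.43 to 4.19, and Mcpt4, its most abundant marker, ranged from 72.1 to 170 CPM. The skeletal muscle mean was 5.37 in MXL12 against 6.80 to 10.5, the lowest of all libraries, with Tnnt3 from 159 to 3010 CPM. Over the 9 libraries the neutrophil mean had an r of 0.86 with Il33 and 0.91 with Il1rl1, and the mast cell mean 0.84 and 0.81. The group 2 innate lymphoid cell mean (r of 0.53 and 0.44) and the dendritic and Langerhans cell mean (0.40 and 0.20) were also highest in MXL12. All these r values include MXL12, the highest library for Il33 and Il1rl1 too, and none was taken without it. The part of these cells in the Il33 and Il1rl1 values was not tested. With the skeletal muscle mean as a covariate, the edgeR log2 fold change of Il33 was -0.96 and that of Il1rl1 -0.40, and with the basal keratinocyte mean they were -0.77 and -0.51. In bulk skin, fewer cells of a type and less RNA per cell cannot be told apart.

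The keratinocyte means bear on the epithelial members. All 8 basal keratinocyte markers and all 8 markers of differentiated keratinocytes had a higher group mean in FJDHF. So did all 8 macrophage markers and 7 of the 8 skeletal muscle markers. The fibroblast, T cell, dendritic and Langerhans cell and neutrophil lists each had 1 of 8 higher, and the other lists 2 to 5. The neutrophil count includes MXL12, and no count was taken without it. Neutrophil means were 1.65 to 2.88 in FJDHF, and 1.26, 4.28, 1.55 and 2.86 in MXL1, MXL12, MXL3_4 and MXL_3. Library means were 7.56 to 8.66 in FJDHF against 7.16 to 9.03 in Model for the basal list (Krt5 the most abundant). They were 9.36 to 10.1 against 8.00 to 9.48 for the differentiated list (Krt1). Over the 9 libraries Il17rb had an r of 0.61 with the basal and 0.79 with the differentiated list. Tslp had an r of -0.57 and -0.11, and Il33 of -0.65 and -0.53. The part of keratinocyte content in the Il17rb and Tslp values was not tested. The markers of the cells on which the alarmins act were also measured in all libraries, with group 2 innate lymphoid cell means of 3.51 to 4.18 in FJDHF and 3.87 to 4.19 in Model (Rora), T cell means of 0.875 to 2.17 and 1.53 to 2.15 (Cd4), and dendritic and Langerhans cell means of 2.67 to 3.26 and 3.12 to 3.39 (Epcam).

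The remaining lists overlapped between the groups as well. Library means were 10.7 to 11.5 in FJDHF and 11.2 to 11.7 in Model for fibroblasts (Col3a1), 5.61 to 6.18 and 5.27 to 6.58 for endothelium (Pecam1), and 6.47 to 7.68 and 6.09 to 7.52 for macrophages (Lyz2). They were 0.653 to 1.48 and 0.730 to 1.51 for eosinophils and basophils (Alox15), 6.48 to 9.10 and 7.00 to 8.57 for the hair follicle (Tchh) and 5.78 to 7.68 and 6.35 to 6.93 for adipocytes (Fabp4). No marker gene was at or below 3 counts in all libraries, and the tissue was skin by its keratins and collagens with a variable share of muscle.

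Il17rb starts 126 bases from Chdh, the choline dehydrogenase gene, which runs the other way, on the plus strand of chromosome 14 from 30009023 to 30040527. The Il17rb window printed above holds both starts, and its AP-1 letters lie between them. Chdh had 68.0, 36.6, 44.6 and 27.3 CPM in MXL1, MXL12, MXL3_4 and MXL_3, and 56.1, 48.8, 42.0, 76.4 and 74.7 CPM in MR1, MR3, MR3_4, MR4_5 and MR5. Both genes were highest in MR4_5 and next highest in MR5, and in Model both were highest in MXL1. Over the 9 libraries Il17rb and Chdh had an r of 0.85 and a rho of 0.87, and Chdh ranked 27 among 15710 genes by likeness to Il17rb. Within FJDHF alone r was 0.96 over 5 libraries. No r was taken within Model, where MXL3_4 was lowest for Il17rb but second highest for Chdh. The Chdh log2 fold change was 0.41 ± 0.27 (SE), with an edgeR adjusted p of 1.00 and an exact permutation p of 0.159. The pair shares 0 exon bases, and Chdh was picked after its values were seen. The 5 genes most like Il17rb were Ano1 (r = 0.96), a calcium-activated chloride channel at 27.5 to 58.8 CPM, Ucn2, Gm7463, Itpr2 and Gm37277.

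For Tslp the 5 most similar genes were Nr2f2 (r = 0.95), Zbed3, Pde11a, Igf2bp2 and Pilrb1. Nr2f2, the nuclear receptor COUP-TFII, had 9.70 CPM in MXL3_4, where Tslp was lowest, and 25.9 in MXL_3. Without MXL12 r was again 0.95. For Crlf2 they were Cebpg, Armc7, Gemin7, Pcdhac2 and Arntl2, with r of 0.91 to 0.99, and each of these was lowest in MXL3_4, the library with 0 Crlf2 counts. Cebpg, a C/EBP family factor, had 26.5 CPM there and 98.2 to 128 elsewhere, and Gemin7, of the SMN complex, had 0.151 against 5.22 to 9.94. Without MXL3_4 the r of Gemin7 with Crlf2 was -0.15 and that of Cebpg 0.87. MXL3_4 had 28 genes at 0 that had at least 10 counts in each of the other libraries, and every library had between 16 and 37 such genes.

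The genes around the alarmins were taken in 5 lists of 68 genes, of which 61 were tested. In edgeR 0 of 61 passed an adjusted p under 0.05, and 1 (1.64%), Klk5, was under an unadjusted p of 0.05, near the 1.57% of all tested genes. At an unadjusted p under 0.05 DESeq2 had 5 of the 66 list genes with a p, against 1.89% of all genes with a p, and limma had 4 of 66, against 2.06%. The median log2 fold change over the 61 genes was -0.011 against -0.032 over all tested genes.

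**Figure D5:**
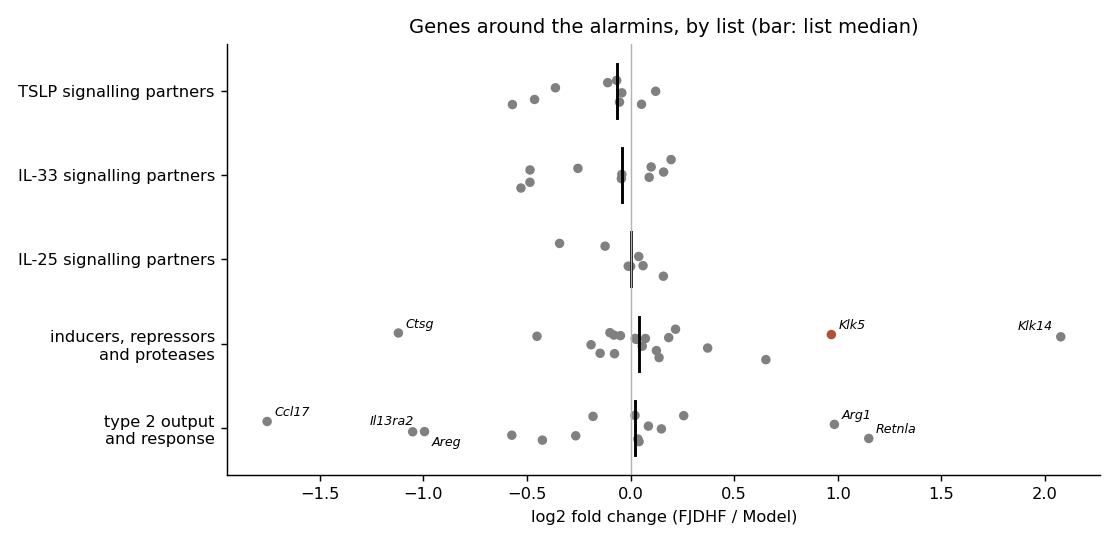
The edgeR log2 fold change of FJDHF over Model for each tested gene of the 5 lists (points, with vertical jitter, orange where the unadjusted p was under 0.05) and the median of each list (bar). The medians lie between -0.067 and 0.042, and genes beyond 0.9 in size are named, of which Klk5 alone was under an unadjusted p of 0.05.

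Of 9 TSLP partners, 2 had positive and 7 negative log2 fold changes (median -0.067), and none passed the test. Il7r, the receptor chain that pairs with TSLPR, had 11.5 ± 3.40 CPM in FJDHF and 16.8 ± 5.20 in Model, with a log2 fold change of -0.57. Il7, the other ligand of that chain, had 4.44 ± 1.01 and 6.02 ± 0.814 CPM, a log2 fold change of -0.46 and an exact permutation p of 0.0476, but an edgeR adjusted p of 1.00. Jak2 (-0.36) and Stat6 (0.12) were the next by p.

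Of 10 genes in the IL-33 list, 4 had positive and 6 negative values (median -0.043), and none passed. The list also takes in Il1r1, Il18r1 and Il1rl2, the receptors of IL-1, IL-18 and IL-36 from the cluster described above. Il1rap, the chain that completes the ST2 receptor, had 75.5 ± 14.7 CPM in FJDHF and 107 ± 51.2 in Model, with 184 CPM in MXL12 and 57.7 to 96.4 in the others. Its log2 fold change was -0.53. Those of Il1r1 (-0.49), Il18r1 (-0.49) and Il1rl2 (-0.25) were of the same sign, and all 4 genes were highest in MXL12, as was Il1rl1.

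Of 7 tested genes in the IL-25 list, 4 were positive and 3 negative (median 0.00), and Il17c, an epithelial cytokine, was not tested, with 8 counts at most. The list also takes in other genes of the IL-17 family, such as Il17rc, Il17re, Il17rd and Il17c. Traf3ip2, which encodes the adaptor Act1, had a log2 fold change of 0.16, Il17rd 0.060 and Traf3 -0.12. Il17rc, a receptor chain of IL-17A and IL-17F, had 36.4 CPM in MXL1 and 4.78 to 15.6 in the others, and a log2 fold change of -0.34.

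Of 20 tested inducers, repressors and proteases, 12 were positive and 8 negative (median 0.042). Klk5, the epidermal kallikrein known to act on PAR-2 and through it on TSLP in Netherton syndrome, had 85.0, 28.5, 29.5 and 20.3 CPM in MXL1, MXL12, MXL3_4 and MXL_3. In MR1, MR3, MR3_4, MR4_5 and MR5 it had 97.6, 81.7, 77.8, 88.9 and 55.6 CPM. The Model libraries other than MXL1 were all below the lowest FJDHF library, whereas MXL1 fell inside the FJDHF range. Its log2 fold change was 0.97 ± 0.38 (SE), with an unadjusted p of 0.0283 and an adjusted p of 1.00 in edgeR. The kallikreins Klk7 and Klk14 had log2 fold changes of 0.65 and 2.08, the latter at 0.436 ± 0.430 CPM in Model and 1.87 ± 1.35 in FJDHF. Ctsg, the cathepsin G that cleaves IL-33, had -1.12 at means of 0.309 CPM in Model and 0.146 CPM in FJDHF, and Elane was not tested.

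Of 15 tested type 2 output and response genes, 8 were positive and 7 negative (median 0.021), and none passed. The cytokine genes Il5 and Il13 had at most 24 and 20 counts in any library and were not tested, nor was Tnfsf4 (at most 28). Il9 and Il31 were not found by name in the FPKM table, so they have no values here. Il13ra2, the IL-13 decoy receptor, had a log2 fold change of -1.05, with 10.4 CPM in MXL12 and 1.50 to 6.38 in the others. Areg, the amphiregulin gene, had -0.99, with 32.2 CPM in MXL12 and 2.73 to 12.4 in the others. Il4, a cytokine gene of T helper 2 cells and mast cells that was picked after its values were seen, was tested, with 1.16 ± 0.471 CPM in FJDHF and 1.13 ± 0.492 in Model, a log2 fold change of 0.021 and an edgeR adjusted p of 1.00. Arg1, the arginase of alternatively activated macrophages and keratinocytes, had 0.98, with 110 CPM in MR4_5, and Retnla 1.15, with 219 and 202 CPM in MR1 and MR3_4 and 18.7 to 79.2 in the others.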

How the data were processed

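Back skin RNA of DNCB-treated mice was sequenced as paired ends, and 2 tables were used. The count table holds whole-number counts per gene as deposited by the authors, and the second table holds FPKM values (fragments per kilobase, scaled to the sequenced total) that the authors computed. HISAT, StringTie and DESeq2, and the build mm10, are named in the submitters' processing notes without versions. The annotation release and strand setting were not given in the sources used here. The FPKM table also carries 9 columns of counts per library, which were not used. Columns were assigned to Model and FJDHF by their code, and the replicate behind each code is not known.

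Counts were filtered with filterByExpr, scaled by TMM and tested with edgeR 4.0.16 (quasi-likelihood test, R 4.3.3), FJDHF against Model over all 9 libraries, with Benjamini-Hochberg adjustment over the 20817 tested genes. CPM are counts per 1000000 of the library total. The exact permutation tests, which went through every split of the libraries, were two-sided, unadjusted and made on log2(CPM + 0.5). Spearman's rho was computed with scipy 1.17.1. Levels of different genes were compared as FPKM. DESeq2 1.42.0, limma 3.58.1 on log2(FPKM + 1), other filters and scalings, marker covariates and leaving out each library were tried, and the steps were tested on simulated data. Totals of 74648669 to 79474215 counts put the limit of a count of 0 (3 counts) at 0.0377 to 0.0402 CPM, for counting error only. No 2 libraries agreed within sampling noise over the 36 pairs. The 4 partner genes of each list with the smallest p, the 5 genes most like each member (Pearson r of log2 TMM-scaled CPM, mean of at least 1 CPM) and the most abundant gene of each marker list were named by rule. The members and lists were chosen with earlier results of these data known. Coordinates outside the tables and promoter windows came from GENCODE M21 and RefSeq on GRCm38.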

Additional observations from a re-analysis of the deposited data

Results flagged for a closer look

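Dixon's ratio is the gap of the extreme library to its neighbour over the group's range. On the CPM scale 1 library stood apart by it in 4 of the 11 sets of libraries compared. Chance alone would give 0.55 for normal values, and counts as low as those of Il25 and Crlf2 are not normal. On the log2(CPM + 0.5) scale 2 of the 11 passed, Il25 and Crlf2 in FJDHF. Il33 in Model had a ratio of 0.831 for MXL12, just above the 95% critical value, and Il1rl1 in Model had 0.926 for the same library. On the log2(CPM + 0.5) scale these ratios were 0.598 and 0.774 and did not pass. Il25 in FJDHF had a ratio of 1 because MR3_4 was the one library with counts, 4 of them. Crlf2 in FJDHF had 0.817 for MR5, whose 22 counts stood against 12 to 14 in the other FJDHF libraries, and 0.803 on the log2 scale, which also passed.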

How the results depend on the processing

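The number of members past an adjusted p of 0.05 was 0 under the 18 alternatives run, and that of the partner genes was 0 under the 14 run for them. Members under an unadjusted p of 0.05 numbered 1 in edgeR and 0 with limma, no filter, at least 10 counts in every library (where Crlf2 drops out), either marker covariate, the replicate block or its 6 libraries unblocked. With a library left out there were 0 to 2. The log2 fold change reached from -1.69 to -0.12 for Il33, -1.29 to 0.51 for Il1rl1, -0.43 to 0.38 for Crlf2, 0.024 to 0.40 for Tslp and 0.45 to 0.84 for Il17rb. The mean log2(CPM + 0.5) difference reached from -1.08 to 0.034 for Il33, -0.62 to 0.50 for Il1rl1, -0.13 to 0.12 for Crlf2, 0.014 to 0.37 for Tslp and 0.40 to 0.72 for Il17rb. The upper ends for Il33 and Il1rl1 came from leaving out MXL12. Crlf2 changed sign with the muscle covariate (0.031), and as ranks Crlf2 (-1.35) and Il1rl1 (1.35) had the other sign than on the log scale. The rank difference of Il33 was 0. Partner genes under an unadjusted p of 0.05 were 1 higher and 0 lower in edgeR (all tested genes 0.773% and 0.793%), 3 and 2 of 66 in DESeq2 (0.979% and 0.912%), 2 and 2 of 66 in limma (1.09% and 0.97%), and 4 and 0 of 61 with the muscle covariate (1.38% and 0.788%). With a library left out they were 0 to 3 and 0 to 5 of 61, most of both without MXL1 (2.09% and 1.36%).

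The number in the codes was shared by 3 pairs of libraries, whose deviations from the group means correlated at 0.12, -0.047 and 0.079. Pairs with unlike numbers were not compared, so these values do not settle whether the pairs share more than a number. With the replicate block on these 6 libraries, which leave out MXL12, the log2 fold change was 0.25 for Il1rl1, 0.78 for Crlf2, 0.52 for Tslp, 0.33 for Il17rb and -0.071 for Il33, against 0.23, 0.20, 0.45, 0.29 and -0.21 unblocked. Depth limits Il25 and Crlf2, which held at most 4 and 25 counts in a library.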
